A study of Mus musculus with 14 samples.

Results

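The genes described here make and use glutathione and thioredoxin, the cell's main carriers of reducing power, or remove superoxide and peroxides. They were chosen by symbol: the alpha, kappa, mu, omega, pi, theta and zeta glutathione transferases, the microsomal transferases, the glutathione peroxidases, the peroxiredoxins, the thioredoxins and their reductases, the glutathione synthesis enzymes with glutathione reductase, sulfiredoxin, NQO1, the superoxide dismutases, catalase, and the regulators NRF2 (*Nfe2l2*) and KEAP1. This gave 51 of the 19525 genes counted, after 3 matching symbols that mark pseudogenes were left out. The libraries were made from polyadenylated RNA in the cytosol of spheroids of 4T1, a mouse triple-negative mammary carcinoma line, after 5 days in lung-like medium. All cells carried a lentiviral hairpin. The scrambled hairpin (shSCR) was used with 700 µM aspartate in 4 libraries (ASP shSCR) and without it in 3 (NoASP shSCR). With the same aspartate, 3 libraries carried a hairpin against *Grin2d*, which encodes part of the glutamate-gated NMDA channel (ASP shGRIN2D), and 4 carried a hairpin against *Dhps*, deoxyhypusine synthase, which starts the hypusination of the translation factor eIF5A (ASP shDHPS). The knockdown groups had no counterpart without aspartate, and each target was silenced by a single hairpin line made by antibiotic selection of a mixed population. What the replicate numbers stand for is not given in the labels, so p-values measure the spread between these libraries.

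Glutathione is built from glutamate, cysteine and glycine, and its first bond, formed by glutamate-cysteine ligase with its catalytic (*Gclc*) and modifier (*Gclm*) subunits, limits the rate. Glutathione peroxidases use it to reduce peroxides, glutathione transferases couple it to reactive compounds, and glutathione reductase (*Gsr*) restores it with NADPH. Peroxiredoxins form a parallel arm that thioredoxin and thioredoxin reductase keep reduced, and sulfiredoxin rescues over-oxidised peroxiredoxins. Many of these genes are known targets of NRF2, a transcription factor that KEAP1 marks for degradation until electrophiles or oxidants modify KEAP1, and tumours often keep this pathway active.

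NRF2 binds with small MAF proteins to the antioxidant response element, whose core reads TGACNNNGC. RefSeq promoter windows of the GRCm38.p6 build, each 300 bases across the transcription start, were matched by symbol for 44 of the 51 genes, and 10 of them (22.7%) held this core on either strand, against 13.99% of the 27025 genes with a window. Those 10 were *Gclm*, *Gsta3*, *Gstm5*, *Gstm7*, *Mgst1*, *Nfe2l2*, *Prdx1*, *Sod1*, *Srxn1* and *Txnrd1*. The windows of 4 of them are printed in gene direction, with the core or its reverse complement in capitals, as examples from genes named in the results. *Gclm* and *Gsta3* passed the test in opposite directions under the *Dhps* hairpin, and *Gclm*, *Srxn1* and *Txnrd1* were low together in replicate 2 of both shSCR groups. *Srxn1* and *Txnrd1* passed in no comparison of the main fit. The 4 windows lie on the plus strand at chr3:122245307-122245606 (*Gclm*), chr1:21240335-21240634 (*Gsta3*), chr2:152105274-152105573 (*Srxn1*) and chr10:82858956-82859255 (*Txnrd1*). A match says only that these letters are present in the window.
Gclm: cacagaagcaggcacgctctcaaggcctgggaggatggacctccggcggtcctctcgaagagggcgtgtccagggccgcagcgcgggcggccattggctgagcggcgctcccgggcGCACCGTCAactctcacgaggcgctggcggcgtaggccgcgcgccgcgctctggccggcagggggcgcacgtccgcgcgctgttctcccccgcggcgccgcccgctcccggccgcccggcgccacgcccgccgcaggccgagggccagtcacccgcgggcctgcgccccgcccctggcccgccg
Gsta3: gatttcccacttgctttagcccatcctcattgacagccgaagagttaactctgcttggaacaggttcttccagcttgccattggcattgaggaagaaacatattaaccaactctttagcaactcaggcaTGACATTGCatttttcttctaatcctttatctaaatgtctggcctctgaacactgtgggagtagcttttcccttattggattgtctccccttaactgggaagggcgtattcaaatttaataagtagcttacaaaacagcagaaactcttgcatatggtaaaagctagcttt
Srxn1: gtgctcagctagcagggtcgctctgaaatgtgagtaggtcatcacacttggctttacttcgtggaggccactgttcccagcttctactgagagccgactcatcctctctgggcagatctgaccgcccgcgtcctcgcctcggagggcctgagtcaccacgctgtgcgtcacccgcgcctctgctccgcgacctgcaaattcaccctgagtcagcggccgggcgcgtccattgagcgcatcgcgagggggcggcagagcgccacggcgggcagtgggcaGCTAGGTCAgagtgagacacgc
Txnrd1: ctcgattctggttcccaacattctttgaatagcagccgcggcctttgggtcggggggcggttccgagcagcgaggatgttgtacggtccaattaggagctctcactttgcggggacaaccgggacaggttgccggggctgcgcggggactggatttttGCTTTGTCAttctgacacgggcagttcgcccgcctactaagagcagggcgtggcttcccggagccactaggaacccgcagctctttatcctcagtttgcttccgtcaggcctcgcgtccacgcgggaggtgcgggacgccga
The core of *Gclm*, *Srxn1* and *Txnrd1* lay on the minus strand and that of *Gsta3* on the plus strand. The windows of *Nqo1* and *Gsta1* did not hold these letters, nor did the other windows of *Txnrd1*. No window was matched for *Gclc*, *Gsr*, *Gsta4*, *Gsta5*, *Gstt2*, *Prdx6* and *Sod3*, which include genes with firm calls. The link of the core to the changes was not tested.

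Total counts ran from 12731123 to 23231378 per library. *Dhps* stood at 5.46 to 9.08 CPM (counts relative to the TMM-scaled library total) in ASP shDHPS and at 16.7 to 22.1 CPM in ASP shSCR, a log2 difference of -1.48 ± 0.15 (SE, edgeR adjusted p = 8.31e-06). *Grin2d* stood at 2.06 to 3.13 CPM in ASP shGRIN2D and at 3.23 to 4.16 CPM in ASP shSCR, 68.2% of the mean of ASP shSCR, a log2 difference of -0.55 ± 0.28 (SE) that did not pass the test (edgeR adjusted p = 0.516), although the groups did not overlap. Because replicate 2 of ASP shSCR and of NoASP shSCR was low in many of the genes described here, counts of calls are also given without these libraries. No pair of replicates agreed within sampling noise (chi-square per degree of freedom 8.14 to 44.99 in 18 pairs). Of 7 epithelial markers, 6 were in the table, and their summed level was 4874 to 4964 CPM in ASP shSCR, 4803 to 5021 CPM in NoASP shSCR, 3618 to 3907 CPM in ASP shGRIN2D and 3711 to 4363 CPM in ASP shDHPS. The keratin *Krt7* was called lower with both targeting hairpins, *Krt18* with that against *Grin2d*, and *Epcam* and *Krt14* with that against *Dhps*. *Krt8* and *Cdh1*, from the same list, were called with neither hairpin. *Cdh1* averaged 442 CPM in ASP shSCR, 422 CPM in ASP shGRIN2D and 453 CPM in ASP shDHPS. *Krt8*, the largest part of the sum, averaged 1677, 1334 and 1473 CPM in the same order. Of 7 leukocyte markers 4 were in the table, at a summed 5.99 to 13.1 CPM in ASP shSCR, 9.92 to 11.03 CPM in NoASP shSCR, 7.98 to 10.3 CPM in ASP shGRIN2D and 12.7 to 16.7 CPM in ASP shDHPS. Of 4 endothelial markers 2 were present, at 0 to 0.55 CPM over all groups, and of 6 fibroblast markers 2 were present, at 22.7 to 40.7 CPM. The fibroblast level was nearly all *Pdgfra*, with at most 1 count of *Dcn* in any library. That of the leukocyte markers was nearly all *Cd68*, with at most 12 counts of *Ptprc*, 7 of *Csf1r* and 2 of *Lyz2* in any library. The part of these markers in the results was not tested, and in bulk RNA fewer cells of a type and less RNA per cell cannot be told apart.

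Together the 51 genes held 0.691% ± 0.049 (SD, n = 4) of all counts in ASP shSCR, 0.698% ± 0.059 (n = 3) in NoASP shSCR, 0.708% ± 0.018 (n = 3) in ASP shGRIN2D and 0.768% ± 0.045 (n = 4) in ASP shDHPS. Levels spread widely. Mean CPM divided by transcript length in kilobases, over all 14 libraries, was highest for *Gstp1* (704 CPM per kb), a pi-class transferase, followed by thioredoxin 1 (*Txn1*, 559), the cytosolic superoxide dismutase *Sod1* (488), peroxiredoxin 1 (*Prdx1*, 392) and the selenium-dependent glutathione peroxidase *Gpx1* (383). In contrast, 12 genes had a mean under 5 CPM, most of them transferases, and *Gstm6* had at most 3 counts, *Gstm7* at most 4, *Gstm4* at most 7 and *Gstt4* at most 10 counts in any library. No fold is given for *Gstm6*. The remaining 39 genes averaged 5 CPM or more, as did 10224 of all genes.

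With the *Dhps* hairpin *Nqo1*, *Prdx6*, *Gclm* and *Gstt3* rose and *Gsta3* and *Gpx2* fell, with rises of 1.34-fold to 1.53-fold. With the *Grin2d* hairpin *Sod3* rose and *Gsr* fell, and with aspartate no gene passed in the unpaired test. With the *Dhps* hairpin, 6 of 51 genes (11.8%) passed an adjusted p under 0.05 in edgeR's quasi-likelihood test, against a background of 4.22% of all genes tested. Of these, 4 rose (7.84%, background 1.65%) and 2 fell (3.92%, background 2.57%). With the *Grin2d* hairpin, 2 of 51 passed (3.92%, background 1.16%), 1 higher (1.96%, background 0.425%) and 1 lower (1.96%, background 0.732%). Among genes averaging 5 CPM or more, the shares were 5 of 39 (12.8%) against 6.93% with the *Dhps* hairpin and 2 of 39 (5.13%) against 1.89% with the *Grin2d* hairpin. With aspartate, 0 of 51 passed, the background was 0%, and 2 of 51 genes had an unadjusted p under 0.05 (*Gsta5* and *Txnrd3*) as did 424 of all genes. DESeq2 also called 0 of 51 with aspartate. Without replicate 2 of both shSCR groups, an alternative chosen after the data were seen, the counts of calls were 0 with aspartate, 2 with the *Grin2d* hairpin and 6 with the *Dhps* hairpin. Leaving out 1 library at a time gave 3 to 7 calls with the *Dhps* hairpin, 3 of them without ASP shDHPS replicate 3. The median log2 fold change of the 39 genes was -0.003 with aspartate (0.003 for all genes of that level), 0.08 with the *Grin2d* hairpin (0.006) and 0.14 with the *Dhps* hairpin (-0.004). The 3 comparisons share the ASP shSCR libraries.

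**Figure D1:**
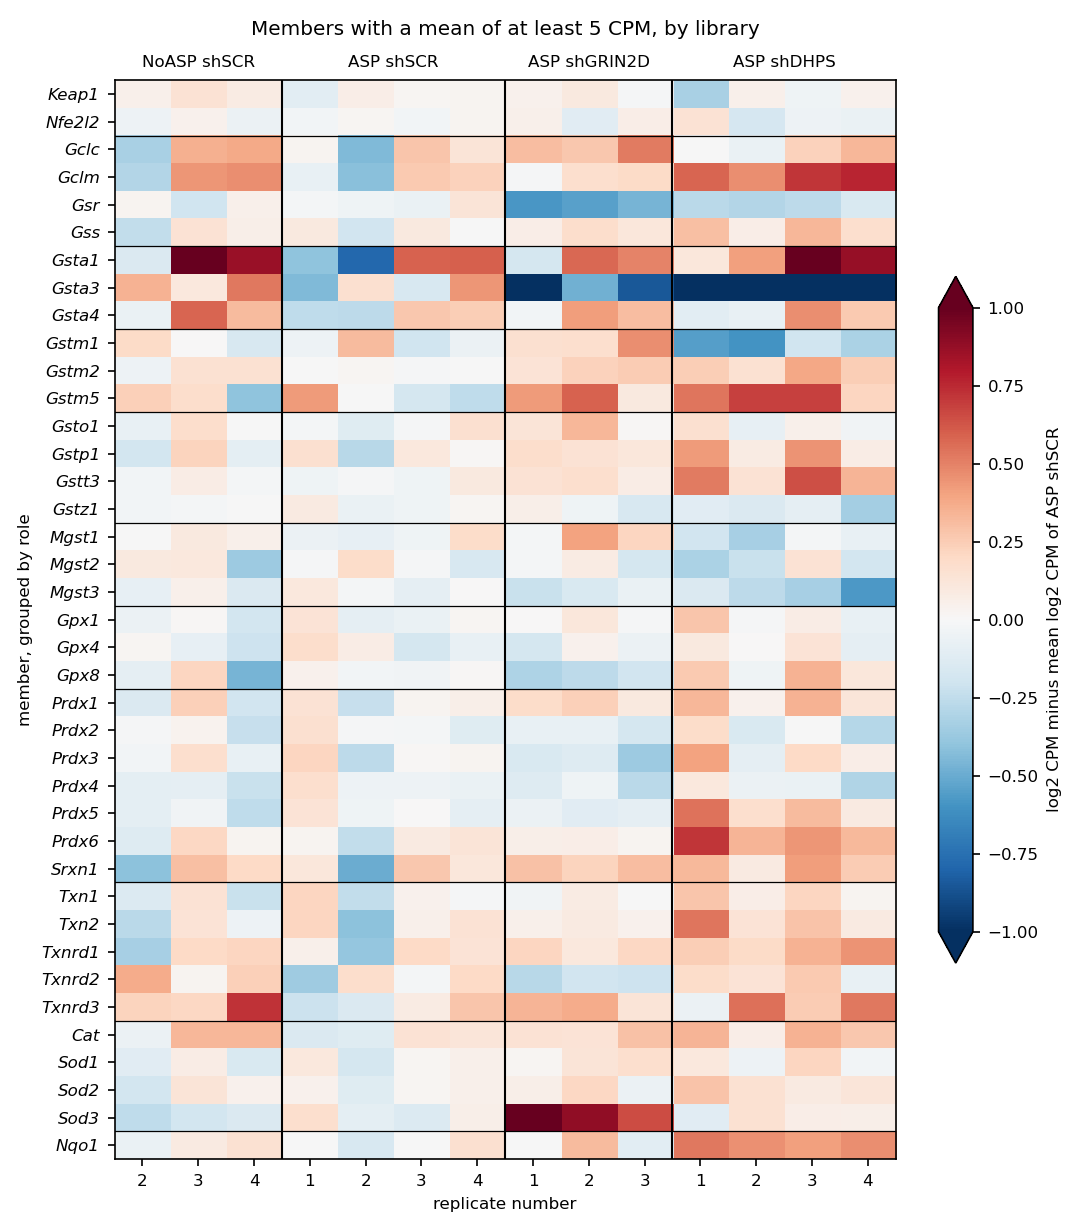
Log2 CPM of each of the 39 genes averaging 5 CPM or more in each of the 14 libraries, minus the mean log2 CPM of ASP shSCR; rows are genes grouped by role, columns are libraries by group and replicate number, and the colour scale ends at 1 and -1. *Gsta3* is blue in all ASP shDHPS libraries, *Gsr* and *Sod3* stand out in ASP shGRIN2D, and *Gclc*, *Gclm* and *Srxn1* are low in replicate 2 of both shSCR groups. *Gsta1* is lowest in ASP shSCR replicate 2, and in NoASP shSCR its replicate 2 lies nearer to the ASP shSCR mean than the other libraries, which lie above it.

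Neither regulator passed the test in any comparison. *Nfe2l2* stood at 160.2, 165, 160.4 and 167 CPM in ASP shSCR, 157, 168 and 157 in NoASP shSCR, 169, 151 and 171 in ASP shGRIN2D and 180.3, 145, 158 and 155 in ASP shDHPS, here and below in order of replicate number. Its groups overlapped in every comparison, and the 95% interval of its log2 fold change was -0.16 to 0.20 with aspartate, -0.18 to 0.18 with the *Grin2d* hairpin and -0.20 to 0.14 with the *Dhps* hairpin. The log2 fold changes of *Keap1* were -0.09, 0.04 and -0.06 in the same order. These are transcript levels, and NRF2 is known to be controlled mainly through its protein.

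Of the 4 genes of glutathione synthesis and reduction, *Gclm* rose with the *Dhps* hairpin and *Gsr* fell with the *Grin2d* hairpin. *Gclm* stood at 132, 104, 166 and 163 CPM in ASP shSCR, 113, 188 and 191 in NoASP shSCR, 137, 156 and 159 in ASP shGRIN2D and 208, 191, 228 and 236 in ASP shDHPS. Every ASP shDHPS library lay above every ASP shSCR library, a log2 rise of 0.61 ± 0.15 (SE, 1.53-fold, edgeR adjusted p = 0.0177). The call rested on single libraries: without ASP shSCR replicate 2, the lowest, the log2 difference was 0.49 (adjusted p = 0.0595), without ASP shDHPS replicate 3 it was 0.58 (adjusted p = 0.0579), and a robust prior gave an adjusted p of 0.0614. *Gclc*, its catalytic partner, did not pass the test with the *Dhps* hairpin (0.11 ± 0.15, adjusted p = 0.726) or with the *Grin2d* hairpin (0.34 ± 0.16, adjusted p = 0.444), and the difference between the subunits was not tested. *Gsr* stood at 338, 332, 327 and 374 CPM in ASP shSCR, 348, 298 and 355 in NoASP shSCR, 229, 235 and 248 in ASP shGRIN2D and 285, 280.1, 285 and 308 in ASP shDHPS. The 3 ASP shGRIN2D libraries were the lowest of all 14, and *Gsr* fell to 0.692 times its ASP shSCR level (log2 -0.53 ± 0.09 SE, edgeR adjusted p = 0.0018), a call that held under all 16 alternatives. The ASP shDHPS libraries lay in between, below every ASP shSCR library, without passing the test (-0.24 ± 0.08, adjusted p = 0.0899). Glutathione synthetase (*Gss*) did not pass in any comparison.

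**Figure D2:**
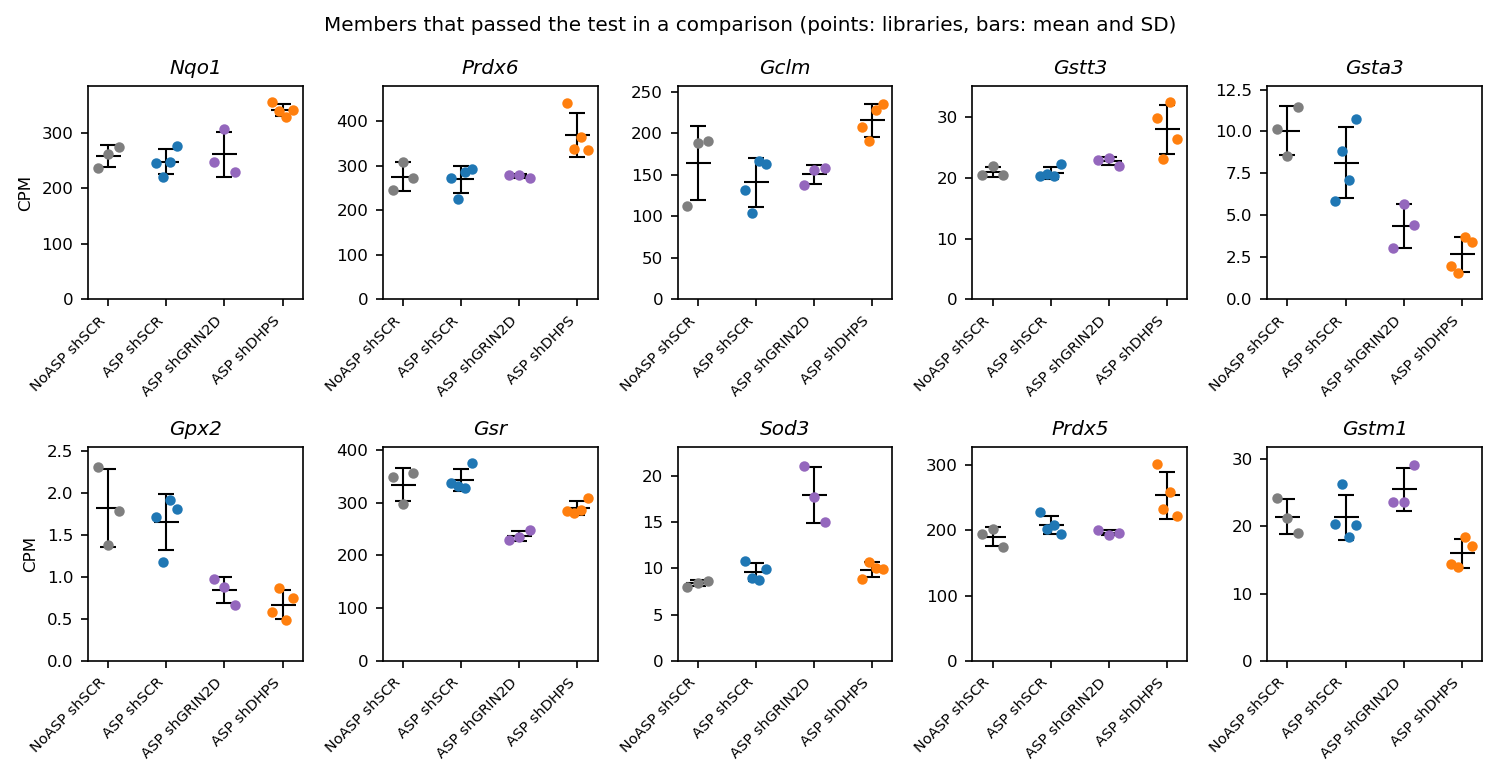
CPM in each library (points) with the mean and SD (bars) of the 10 genes that passed the test in a comparison between groups; each panel is 1 gene, its axis starts at 0 and the 4 groups are coloured. *Gsr* and *Sod3* set ASP shGRIN2D apart, and *Nqo1*, *Prdx6*, *Gclm*, *Gstt3* and *Gsta3* separate ASP shDHPS from ASP shSCR.

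The alpha-class transferase *Gsta3*, known in mice for conjugating the aflatoxin epoxide, showed the largest fall of the 39 genes. It stood at 5.86, 8.85, 7.11 and 10.8 CPM in ASP shSCR, 10.1, 8.55 and 11.5 in NoASP shSCR, 3.04, 5.70 and 4.40 in ASP shGRIN2D and 2.00, 1.60, 3.73 and 3.42 in ASP shDHPS, where the counts behind these values were 38, 24, 69 and 64. No ASP shDHPS library reached any ASP shSCR library, and the level fell to 0.336 times that of ASP shSCR (log2 -1.57 ± 0.25 SE, edgeR adjusted p = 0.00092), called under all 17 alternatives. The ASP shGRIN2D libraries also lay below every ASP shSCR library, but the difference did not pass the test (-0.89 ± 0.26, adjusted p = 0.129). *Gsta4*, which detoxifies the lipid peroxidation product 4-hydroxynonenal, was the most abundant alpha-class gene by CPM. It stood at 176, 175, 253 and 248 CPM in ASP shSCR, 200.1, 314 and 260.4 in NoASP shSCR, 205, 280.2 and 259 in ASP shGRIN2D and 195, 199, 289 and 251 in ASP shDHPS, and its groups overlapped in every comparison. Its log2 difference was 0.22 ± 0.16 with the *Grin2d* hairpin and 0.14 ± 0.15 with the *Dhps* hairpin (adjusted p = 0.672 and 0.67).

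*Gsta1* stood at 36.3, 27.9, 72.4 and 72.98 CPM in ASP shSCR, 43.6, 108 and 87.7 in NoASP shSCR, 42.6, 71.6 and 67.9 in ASP shGRIN2D and 52.1, 64.1, 101 and 87.9 in ASP shDHPS. The groups overlapped in both comparisons with a targeting hairpin (log2 0.21 ± 0.30 and 0.55 ± 0.28, adjusted p = 0.865 and 0.289). By replicate number, the ASP shDHPS library was above the ASP shSCR library in 4 of 4 pairs and the ASP shGRIN2D library in 2 of 3, although these numbers are not shown to pair the libraries. Its coding sequence is 97.6% identical to that of *Gsta2* and 97.0% to that of *Gsta5*, so the split of reads among the 3 genes is uncertain, and with their counts summed the differences were 0.20 and 0.52. The same holds for *Gstp1* and *Gstp2*, with coding sequences 98.1% identical.

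Of the other soluble transferases, the theta-class *Gstt3* rose with the *Dhps* hairpin. It stood at 20.2, 20.6, 20.2 and 22.2 CPM in ASP shSCR, 20.4, 21.9 and 20.5 in NoASP shSCR, 22.97, 23.3 and 21.9 in ASP shGRIN2D and 29.8, 23.1, 32.5 and 26.4 in ASP shDHPS. Its lowest ASP shDHPS library lay just above its highest ASP shSCR library, and the rise of 0.43 ± 0.10 on the log2 scale (edgeR adjusted p = 0.0215) was lost without ASP shSCR replicate 1 (adjusted p = 0.053) or 2 (0.0535), and without ASP shDHPS replicate 1 (0.0504) or 3 (0.0988). The mu-class *Gstm1*, which conjugates electrophiles, stood at 20.4, 26.3, 18.4 and 20.3 CPM in ASP shSCR, 24.2, 21.3 and 18.96 in NoASP shSCR, 23.7, 23.7 and 29.2 in ASP shGRIN2D and 14.4, 13.99, 18.5 and 17.03 in ASP shDHPS. It did not pass against ASP shSCR with either hairpin (0.26 ± 0.14 and -0.42 ± 0.13, adjusted p = 0.531 and 0.0734). Its relative *Gstm2* stood at 48.4, 49.3, 48.1 and 48.4 CPM in ASP shSCR, 46.8, 54.1 and 54.1 in NoASP shSCR, 53.3, 57.01 and 57.9 in ASP shGRIN2D and 57.6, 54.1, 63.6 and 57.5 in ASP shDHPS. Both targeting hairpins put *Gstm2* above every ASP shSCR library, with log2 differences of 0.21 ± 0.09 and 0.26 ± 0.08 that did not pass (adjusted p = 0.413 and 0.0826).

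*Gstp1*, the most abundant transferase, stood at 596, 442, 576 and 538 CPM in ASP shSCR, 470.1, 623 and 501 in NoASP shSCR, 604, 589.6 and 577 in ASP shGRIN2D and 717, 567, 729 and 563 in ASP shDHPS. The groups overlapped, and neither hairpin moved it past the test (0.13 ± 0.12 and 0.26 ± 0.11, adjusted p = 0.74 and 0.198). The microsomal transferases sit in membranes and act on lipid peroxides and leukotriene precursors. *Mgst1* stood at 85.4, 83.9, 86.1 and 101 CPM in ASP shSCR, 88.4, 95.1 and 91.97 in NoASP shSCR, 87.8, 117 and 103 in ASP shGRIN2D and 77.8, 70.6, 87.4 and 84.2 in ASP shDHPS. *Mgst3* stood at 48.1, 44.3, 42.2 and 44.9 CPM in ASP shSCR, 42.3, 46.4 and 40.5 in NoASP shSCR, 38.4, 40.4 and 42.8 in ASP shGRIN2D and 40.6, 37.3, 35.7 and 30.1 in ASP shDHPS. All ASP shDHPS libraries of *Mgst3* lay below all ASP shSCR libraries, but the difference of -0.32 ± 0.10 did not pass (adjusted p = 0.063). All 3 microsomal transferases had a negative log2 difference with the *Dhps* hairpin, from -0.32 to -0.14, and none passed.

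Of the 4 glutathione peroxidases, *Gpx2*, an enzyme best known from the gut epithelium and a recognised NRF2 target, fell with the *Dhps* hairpin at a very low level. It stood at 1.71, 1.17, 1.91 and 1.81 CPM in ASP shSCR, 2.30, 1.37 and 1.78 in NoASP shSCR, 0.979, 0.881 and 0.667 in ASP shGRIN2D and 0.578, 0.866, 0.486 and 0.747 in ASP shDHPS. These values rest on 9 to 43 counts per library. Both targeting hairpins gave values below every shSCR library, a log2 difference of -1.30 ± 0.32 with that against *Dhps* (edgeR adjusted p = 0.0207) and -0.95 ± 0.34 with that against *Grin2d* (adjusted p = 0.254). The *Dhps* call was lost without ASP shSCR replicate 3 (adjusted p = 0.0532) or 4 (0.0501), and without ASP shDHPS replicate 1 (0.0549) or 3 (0.0752). *Gpx1*, the main cytosolic enzyme, stood at 446, 381, 388 and 413 CPM in ASP shSCR, 391, 409 and 358 in NoASP shSCR, 406, 439 and 403 in ASP shGRIN2D and 492, 404, 428 and 385 in ASP shDHPS, with groups that overlapped. *Gpx8*, which resides in the endoplasmic reticulum, stood at 37.9, 36.1, 35.8 and 37.1 CPM in ASP shSCR, 34.5, 42.7 and 26.6 in NoASP shSCR, 29.7, 30.6 and 32.1 in ASP shGRIN2D and 43.97, 35.7, 46.6 and 39.8 in ASP shDHPS. Neither *Gpx1* nor *Gpx4*, which reduces phospholipid hydroperoxides and guards against ferroptosis, passed in any comparison.

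Among the 6 peroxiredoxins, *Prdx6* rose with the *Dhps* hairpin. PRDX6 has a single active cysteine and is reduced with glutathione rather than thioredoxin. It stood at 273, 226, 286 and 294 CPM in ASP shSCR, 245, 309.5 and 273 in NoASP shSCR, 279.9, 280.2 and 273 in ASP shGRIN2D and 441, 339, 364 and 335 in ASP shDHPS. Every ASP shDHPS library exceeded all 10 others, and the log2 rise of 0.46 ± 0.10 (1.37-fold, edgeR adjusted p = 0.0114) was called under all 17 alternatives. *Prdx5*, found in mitochondria and peroxisomes, stood at 228, 201, 208 and 195 CPM in ASP shSCR, 194, 202 and 175 in NoASP shSCR, 199.8, 192 and 196 in ASP shGRIN2D and 302, 233, 259 and 221 in ASP shDHPS. Its log2 difference with the *Dhps* hairpin, 0.29 ± 0.09, did not pass (adjusted p = 0.086), with ASP shDHPS replicate 4 inside the range of ASP shSCR. The mitochondrial *Prdx3* stood at 81.9, 59.03, 71.4 and 72.2 CPM in ASP shSCR, 69.4, 79.3 and 67.1 in NoASP shSCR, 63.7, 64.6 and 54.9 in ASP shGRIN2D and 93.4, 66.6, 81.1 and 73.99 in ASP shDHPS. *Prdx1*, the most abundant of the 51 genes by CPM, stood at 925, 715, 855 and 873 CPM in ASP shSCR, 758, 986 and 735 in NoASP shSCR, 949, 991 and 895 in ASP shGRIN2D and 1052, 864, 1068 and 909.8 in ASP shDHPS, and its differences of 0.17 ± 0.11 and 0.21 ± 0.10 did not pass (adjusted p = 0.627 and 0.27). *Prdx3* and *Prdx1* overlapped between each knockdown and ASP shSCR.

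The thioredoxins, their reductases and sulfiredoxin gave no call in the main fit. With the replicate number added as a block, *Txnrd1* and *Srxn1* were called with the *Dhps* hairpin. *Txn1* stood at 663, 484, 591 and 568 CPM in ASP shSCR, 520.1, 632 and 492 in NoASP shSCR, 560.4, 606 and 571 in ASP shGRIN2D and 694, 599.6, 664 and 584 in ASP shDHPS, with groups that overlapped and a 95% interval of -0.07 to 0.35 for its log2 difference with the *Dhps* hairpin. The 5 thioredoxins and reductases had log2 differences of 0.12 to 0.33 with the *Dhps* hairpin, and of these *Txnrd1*, the cytosolic selenoprotein reductase, stood at 481 ± 82.2 CPM (SD, n = 4) in ASP shSCR and 591 ± 47.2 CPM (n = 4) in ASP shDHPS (0.30 ± 0.12, adjusted p = 0.177). Sulfiredoxin (*Srxn1*) stood at 188 ± 39.7 CPM (n = 4) in ASP shSCR, 223 ± 6.81 CPM (n = 3) in ASP shGRIN2D and 224 ± 21.2 CPM (n = 4) in ASP shDHPS, and passed in neither comparison (adjusted p = 0.595 and 0.339).

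*Sod3*, the superoxide dismutase that is secreted and held on the matrix, rose with the *Grin2d* hairpin. It stood at 10.8, 8.97, 8.72 and 9.98 CPM in ASP shSCR, 8.03, 8.44 and 8.67 in NoASP shSCR, 21.1, 17.7 and 15.1 in ASP shGRIN2D and 8.82, 10.7, 10.05 and 9.98 in ASP shDHPS. The 3 ASP shGRIN2D libraries were above all 11 others, a log2 rise of 0.91 ± 0.14 (1.87-fold, edgeR adjusted p = 0.00076) that was called under all 16 alternatives. With the *Dhps* hairpin the log2 difference was 0.04 ± 0.13, with a 95% interval of -0.23 to 0.31. *Sod1* stood at 329, 272, 309.9 and 318 CPM in ASP shSCR, 284, 322 and 276 in NoASP shSCR, 309.8, 335 and 344 in ASP shGRIN2D and 330.2, 296, 356 and 301 in ASP shDHPS. It did not pass in any comparison, nor did the mitochondrial *Sod2* or catalase (*Cat*, 0.25 ± 0.10 with the *Dhps* hairpin, adjusted p = 0.167).

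*Nqo1*, a quinone reductase and a widely used readout of NRF2 activity, stood at 246, 221, 246 and 276 CPM in ASP shSCR, 236, 262 and 274 in NoASP shSCR, 246, 307 and 229 in ASP shGRIN2D and 355, 339, 328 and 341 in ASP shDHPS. The 4 ASP shDHPS libraries were the highest of all 14. *Nqo1* rose by 0.46 ± 0.09 on the log2 scale with the *Dhps* hairpin (1.38-fold, edgeR adjusted p = 0.0064), under all 17 alternatives, and differed by 0.08 ± 0.10 with the *Grin2d* hairpin (adjusted p = 0.85).

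**Figure D3:**
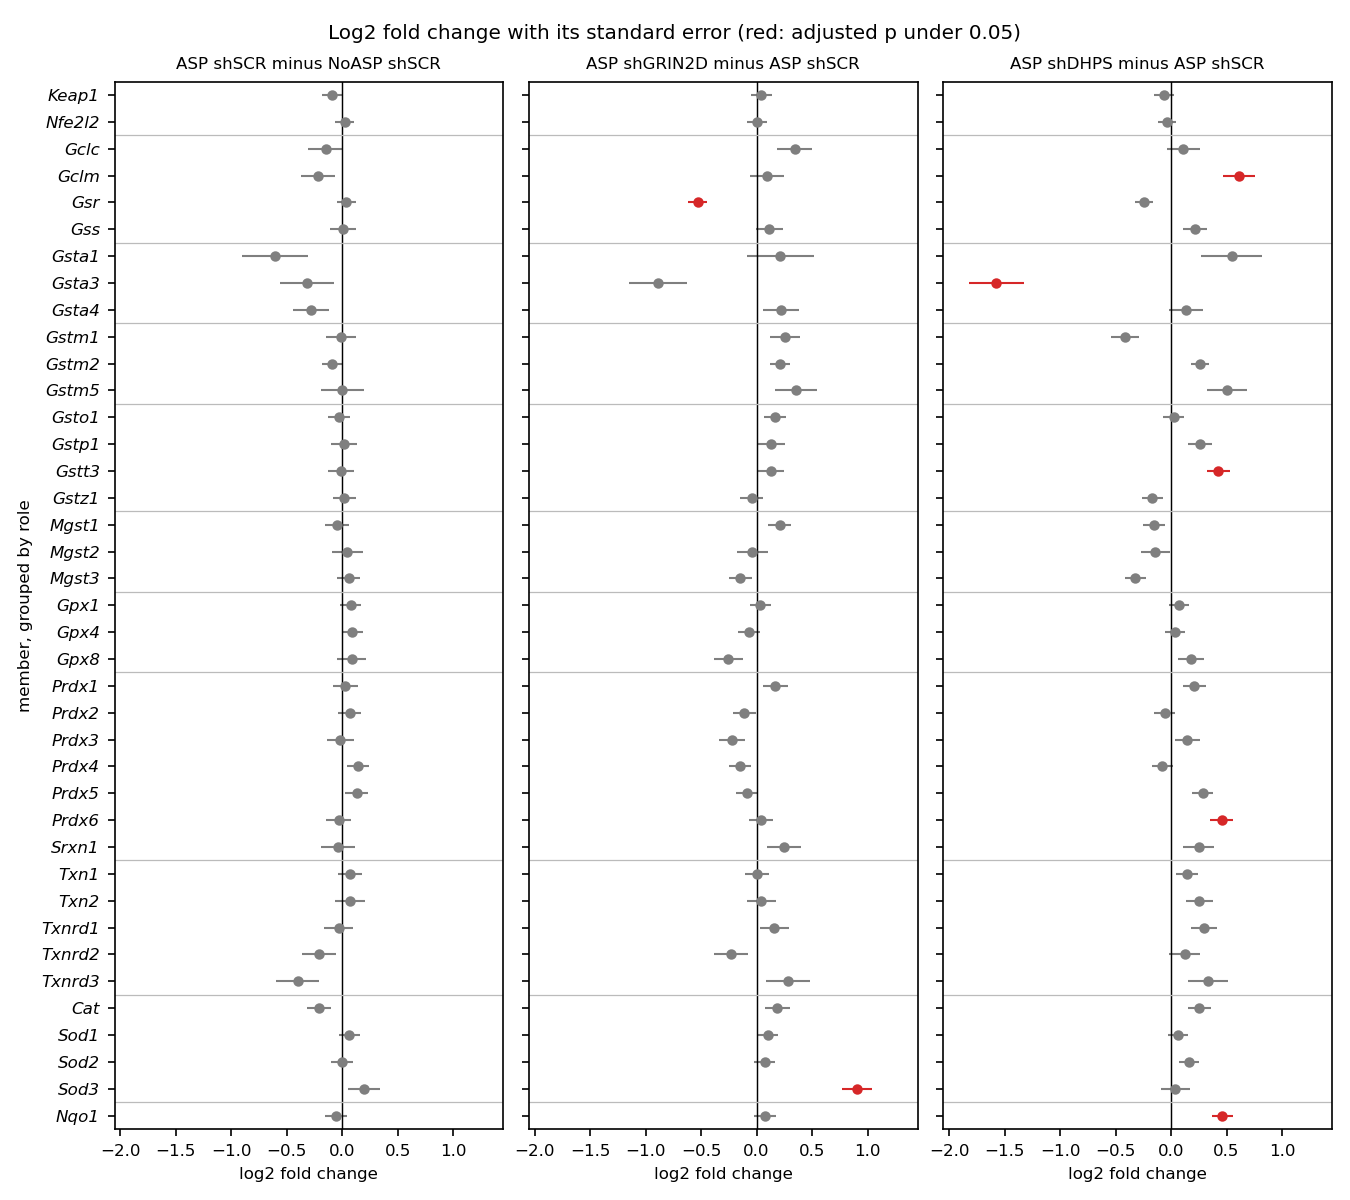
Log2 fold change (points) with its standard error (bars) of the 39 genes averaging 5 CPM or more, for aspartate, the *Grin2d* hairpin and the *Dhps* hairpin from left to right; red marks an adjusted p under 0.05. No gene is red for aspartate, *Gsr* and *Sod3* are red for *Grin2d*, and *Gclm*, *Gsta3*, *Gstt3*, *Prdx6* and *Nqo1* are red for *Dhps*.

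Compared directly, the knockdowns differed in 5 of 51 genes (9.8%, background 2.82%). Of these, 3 were higher in ASP shDHPS (5.88%, background 1.2%) and 2 lower (3.92%, background 1.62%), and among genes averaging 5 CPM or more the share was 12.8% against 4.66%. *Sod3* was lower in ASP shDHPS than in ASP shGRIN2D by a log2 difference of -0.87 ± 0.14 (edgeR adjusted p = 0.00058) and *Gstm1* by -0.67 ± 0.14 (adjusted p = 0.0073). *Nqo1* was higher by 0.39 ± 0.10 (adjusted p = 0.0408), *Prdx6* by 0.41 ± 0.11 (adjusted p = 0.0429) and *Prdx5* by 0.37 ± 0.10 (adjusted p = 0.0473). The groups did not overlap for any of the 5 genes. The count of calls was 3 without ASP shGRIN2D replicate 1, where *Mgst1* was gained beside *Sod3* and *Gstm1*, 3 without its replicate 2, 1 without its replicate 3, and 2 without ASP shDHPS replicate 1 or 3. *Sod3* was called without any one library, whereas *Gstm1* was not called without ASP shGRIN2D replicate 3 (-0.57, adjusted p = 0.0735). *Nqo1*, *Prdx6* and *Prdx5* each lost the call without ASP shGRIN2D replicate 1 (adjusted p = 0.228, 0.161 and 0.157), replicate 3 (0.259, 0.166 and 0.161), ASP shDHPS replicate 1 (0.0669, 0.104 and 0.104) and ASP shDHPS replicate 3 (0.0657, 0.0798 and 0.103). *Prdx6* and *Prdx5* also lost it without ASP shGRIN2D replicate 2 (0.129 and 0.163), and *Nqo1* without ASP shDHPS replicate 2 (0.0762) or 4 (0.0591). With only the groups compared in the fit, *Prdx5* was not called (adjusted p = 0.0571). *Mgst1*, *Gpx8*, *Gsr*, *Gclm* and *Prdx3* also had groups that did not overlap, with log2 differences of -0.36, 0.43, 0.29, 0.52 and 0.37, and did not pass (adjusted p = 0.0663, 0.0746, 0.0842, 0.0871 and 0.118). They are named here because their groups did not overlap, and the share of all genes without overlap is not given.

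Aspartate was further examined for *Gsta1* by replicate number, since same-numbered shSCR libraries deviated together across genes. With aspartate *Gsta1* stood at 27.9 CPM against 43.6 CPM without it in replicate 2, at 72.4 against 108 CPM in replicate 3, and at 72.98 against 87.7 CPM in replicate 4, so the aspartate library held 63.9%, 67.2% and 83.2% of its partner's level. The mean log2 difference of the 3 pairs was -0.49 ± 0.20 (SD, n = 3 pairs). The spread between replicate numbers, from 27.9 to 72.98 CPM with aspartate alone, exceeded the difference within any pair. Without the pairing the log2 difference was -0.61 ± 0.30 (edgeR adjusted p = 1, unadjusted p = 0.0525). With the replicate number as a block in the 7 shSCR libraries it was -0.49 ± 0.08 (adjusted p = 7.87e-07), and *Gsta1* was the only one of the 51 genes called (1.96%, background 0.328%, 64 genes). With the block and all 14 libraries it was -0.45 (adjusted p = 1), and 0 of the 51 genes were called. The fit of 7 libraries leaves 2 residual degrees of freedom, so its error rests mainly on the spread shared across genes. Without pair 2, 3 or 4 the blocked difference was -0.42, -0.44 and -0.60 (adjusted p = 0.0208, 0.00884 and 1.63e-08), and with *Gsta2* and *Gsta5* counts added it was -0.48 (adjusted p = 6.05e-07). Fits without a pair leave fewer residual degrees of freedom still. Their adjusted p-values rest even more on the spread shared across genes and add no support. *Gsta1* was singled out with results of these data known, so these values describe it.

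Some other genes, chosen for a view by pair, were also lower with aspartate within pairs. How many of all genes were lower in each pair was not counted. *Gsta4* stood at 175 against 200.1 CPM, 253 against 314 CPM and 248 against 260.4 CPM in pairs 2, 3 and 4, a blocked log2 difference of -0.19 ± 0.07 (edgeR adjusted p = 0.428). *Gsta3* was lower in each pair too (blocked -0.18 ± 0.14, adjusted p = 1), and so was *Gsta5*, at 1.17 to 2.25 CPM with aspartate (-0.73 ± 0.27, adjusted p = 0.517). *Gsta2* was lower in pairs 2 and 3 and higher in pair 4. None of these 4 passed with the block. Outside the alpha class, *Gclm* was lower in each pair (log2 differences of -0.12, -0.18 and -0.23, blocked -0.18 ± 0.07, adjusted p = 0.678), as were *Gclc* (blocked -0.14 ± 0.07, adjusted p = 1) and *Srxn1* (blocked -0.07 ± 0.07, adjusted p = 1), and none of them passed. *Txnrd1* was lower in pairs 2 and 4 and slightly higher in pair 3. Outside that choice, *Cat*, *Txnrd2* and *Txnrd3* were also lower in each pair (blocked -0.15 ± 0.07, -0.09 ± 0.13 and -0.31 ± 0.17), without passing. In contrast, *Prdx4*, *Prdx5* and *Sod3* were higher with aspartate in each pair (blocked 0.08 ± 0.08, 0.09 ± 0.07 and 0.14 ± 0.14), also without passing.

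**Figure D4:**
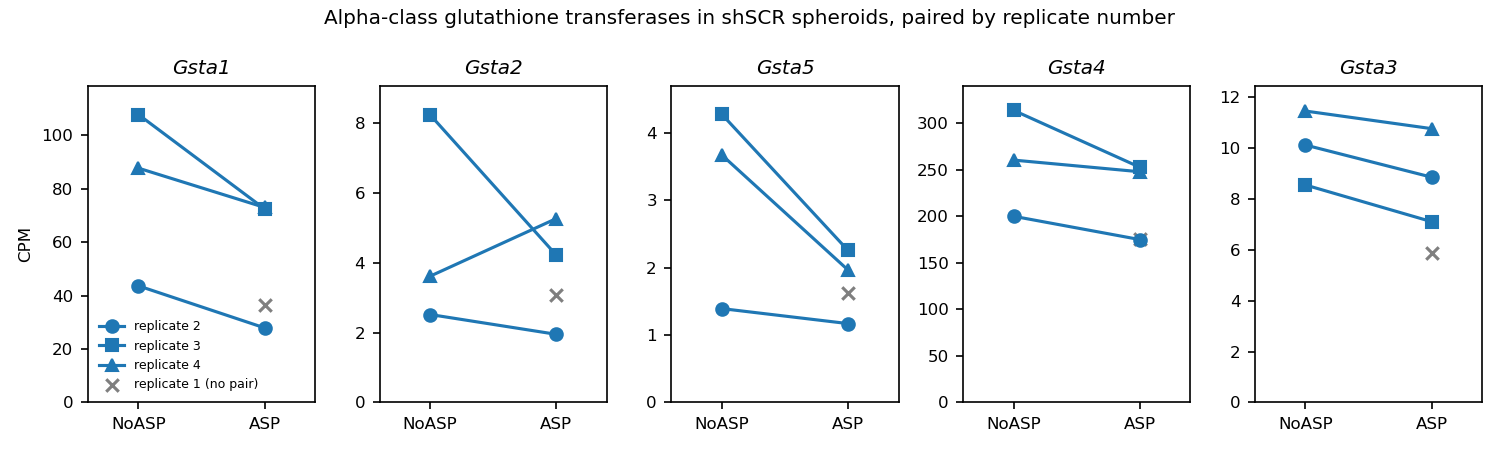
CPM of the 5 alpha-class transferases in shSCR spheroids without (NoASP) and with aspartate (ASP); lines join libraries of the same replicate number, the cross is ASP shSCR replicate 1, which has no partner, and each axis starts at 0. For *Gsta1*, *Gsta5*, *Gsta4* and *Gsta3* all 3 lines go down, while for *Gsta2* that of replicate 4 goes up.

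Replicate 2 of both shSCR groups was low in many of these genes. In 15 of the 39 genes averaging 5 CPM or more (38.5%), replicate 2 was the lowest library both in ASP shSCR and in NoASP shSCR, against a background of 22.7% of all genes of that level, and in 1 gene, *Gstm1* (2.56%), it was the highest in both, against a background of 24.8%. The 15 genes included both subunits of glutamate-cysteine ligase with glutathione synthetase (*Gclc*, *Gclm*, *Gss*), the transferases *Gsta1*, *Gsta4*, *Gsto1*, *Gstp1*, *Gstz1* and *Mgst1*, and *Srxn1*, *Txnrd1*, *Txn2*, *Prdx6*, *Sod2* and *Nqo1*. Relative to the mean of the other libraries of its group, replicate 2 held 46.1% and 44.7% of the *Gsta1* level with and without aspartate, 63.1% and 63.3% of *Srxn1*, 67.5% and 59.5% of *Gclm*, 66.5% and 61.8% of *Gclc*, and 69.6% and 68.8% of *Txnrd1*. *Gsr* (95.9% and 107%) and *Nfe2l2* (102% and 96.8%) were close to the other libraries. The labels give no batch for replicate 2, and its difference from the other libraries was not tested.

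**Figure D5:**
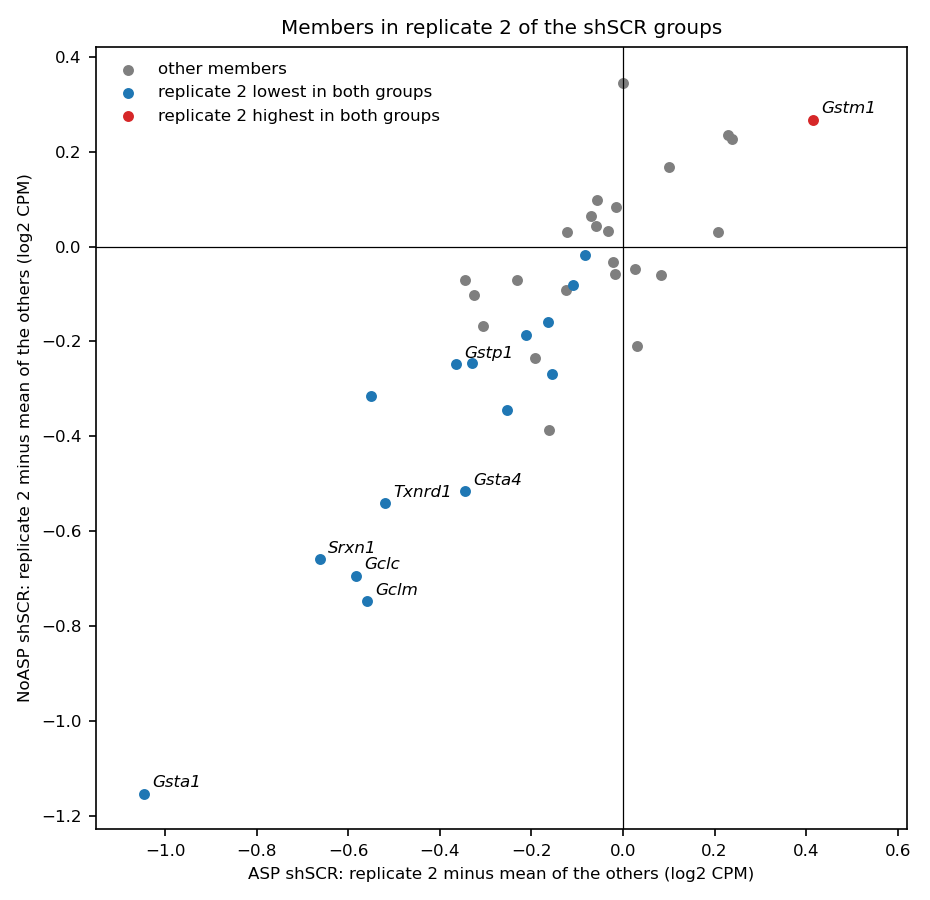
Replicate 2 minus the mean of the other libraries of its group, in log2 CPM, in ASP shSCR (horizontal) and NoASP shSCR (vertical), with 1 point for each of the 39 genes averaging 5 CPM or more; blue points are lowest in replicate 2 in both groups and the red point, *Gstm1*, highest in both. *Gsta1* lies farthest from 0 on both axes, and *Srxn1*, *Gclc*, *Gclm* and *Txnrd1* lie below -0.5 on both.

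Outside the 51 genes, 100 of 105 genes of 9 related lists were in the table. With the *Dhps* hairpin 8 rose and 6 fell (14 of 100, background 4.22%), and with the *Grin2d* hairpin 2 rose and 0 fell (2 of 100, background 1.16%). With aspartate 0 passed, and between the knockdowns 1 was higher (background 1.2%) and 4 were lower in ASP shDHPS (background 1.62%). The count with the *Grin2d* hairpin was near its background and is no result about the lists. Of 22 measured NRF2 targets, 3 rose and 2 fell with the *Dhps* hairpin (median log2 difference 0.11). Heme oxygenase (*Hmox1*), which degrades heme, stood at 29.3, 29.7, 45.2 and 31.7 CPM in ASP shSCR, 26.7, 56.5 and 41.7 in NoASP shSCR, 48.2, 50.7 and 58.1 in ASP shGRIN2D and 75.8, 56.5, 107 and 90.5 in ASP shDHPS. It rose by 1.28 ± 0.19 on the log2 scale with the *Dhps* hairpin (edgeR adjusted p = 0.00051), and its difference with the *Grin2d* hairpin did not pass (0.62 ± 0.21, adjusted p = 0.202). Ferritin heavy chain (*Fth1*), which stores iron, rose with both, by 0.68 ± 0.10 and 0.47 ± 0.11 (adjusted p = 0.00036 and 0.025), and the aldo-keto reductase *Akr1b8* rose by 0.35 ± 0.10 with the *Dhps* hairpin (adjusted p = 0.0408). *Idh1*, a source of NADPH, fell (log2 difference -0.64 ± 0.11), as did the glucuronosyltransferase *Ugt1a6a* (-0.85 ± 0.16, adjusted p = 0.0014 and 0.0044). Without any one library these calls remained for *Hmox1*, *Idh1*, *Ugt1a6a* and, with the *Dhps* hairpin, *Fth1*. The *Grin2d* call of *Fth1* was lost without ASP shSCR replicate 2 or 3 or any ASP shGRIN2D library (adjusted p = 0.0525 to 0.193), and that of *Akr1b8* without ASP shSCR replicate 1, 2 or 4 or ASP shDHPS replicate 1 or 3 (0.0795 to 0.14).

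In the supply and breakdown of glutathione, 2 of 13 measured genes rose and 1 fell with the *Dhps* hairpin. *Chac1*, which cleaves glutathione and is known as a target of ATF4, stood at 10.3, 11.03, 8.67 and 8.72 CPM in ASP shSCR, 8.57, 13.3 and 10.7 in NoASP shSCR, 9.84, 9.51 and 9.60 in ASP shGRIN2D and 22.7, 18.99, 23.6 and 19.2 in ASP shDHPS, a rise of 1.12 ± 0.14 (edgeR adjusted p = 6.40e-05). *Slc3a2*, the shared chain of amino acid exchangers, rose by 0.31 ± 0.09 (adjusted p = 0.042), while the cystine carrier *Slc7a11*, which pairs with it, stood at 205 ± 22.04 CPM in ASP shSCR and 215 ± 34.8 CPM in ASP shDHPS (SD, n = 4 each), a log2 difference with a 95% interval of -0.19 to 0.31. The *Slc3a2* call was lost without ASP shSCR replicate 1, 2 or 4 or ASP shDHPS replicate 3 or 4 (adjusted p = 0.089 to 0.117). *Cth*, which makes cysteine from cystathionine, stood at 10.01, 11.03, 7.74 and 10.3 CPM in ASP shSCR and 6.51, 4.73, 3.67 and 6.25 in ASP shDHPS, a difference of -0.88 ± 0.19 (adjusted p = 0.0084).

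In the remaining lists, the methionine sulfoxide reductase *Msrb3* rose with both hairpins (0.99 ± 0.13 and 0.56 ± 0.14, edgeR adjusted p = 9.13e-05 and 0.0416) and *Sesn3*, a sestrin, was lower with that against *Dhps* (-0.89 ± 0.16, adjusted p = 0.0028), 2 of 7 genes. *Mafk*, a small MAF partner of NRF2, rose by 0.58 ± 0.13 (adjusted p = 0.014) as the only call among 12 partners and regulators. Of 13 glutaredoxins and thioredoxin relatives only *Glrx2* was called with the *Dhps* hairpin (0.43 ± 0.12, adjusted p = 0.0423), and the thioredoxin inhibitor *Txnip* was not (0.24 ± 0.16, adjusted p = 0.43). The glutathione conjugate exporter *Abcc3* (1 of 4 exporters, -1.01 ± 0.20, adjusted p = 0.0047) and the aldehyde oxidase *Aox1* (1 of 13 oxidant sources, -0.58 ± 0.11, adjusted p = 0.0044) were lower with the *Dhps* hairpin, the former not under a robust prior (adjusted p = 0.0581). None of 8 genes of selenoprotein synthesis and none of 10 relatives of the transferases passed in any comparison. Single libraries decided some of these calls. That of *Msrb3* with the *Grin2d* hairpin was lost without ASP shSCR replicate 1, 2 or 4 or any ASP shGRIN2D library (adjusted p = 0.0595 to 0.308), that of *Mafk* without ASP shDHPS replicate 3 (0.0629), and that of *Glrx2* without ASP shSCR replicate 2 or 4 or ASP shDHPS replicate 1, 2 or 3 (0.0713 to 0.157). Between the knockdowns, *Chac1* was higher in ASP shDHPS, and *Idh1*, *Ugt1a6a*, *Aox1* and the aldo-keto reductase *Akr1c13* (-0.75 ± 0.20, adjusted p = 0.0399) were lower. The call of *Akr1c13* was lost without any ASP shGRIN2D library or ASP shDHPS replicate 2, 3 or 4 (adjusted p = 0.0635 to 0.148), and that of *Idh1* without ASP shGRIN2D replicate 1 or 2 (0.0515 and 0.0967).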

How the data were processed

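Polyadenylated RNA of 14 libraries from 4 groups of spheroids was sequenced. The authors deposited whole-number counts per gene: per the study's methods and the submitters' processing notes, reads were trimmed (Trim Galore 0.6.6), checked (FastQC 0.11.9), aligned (STAR 2.6.1, GRCm39) and quantified (Salmon 1.4.0), estimates were rounded, and genes without expression in enough replicates of any condition were dropped. Their tables of fold changes, p-values, q-values and enrichment scores (DESeq2 1.34.0) were not used, and no column belonged to another series.

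Counts of 19525 genes were fitted with edgeR 4.0.16 (R 4.3.3; quasi-likelihood test, TMM scaling, all 14 libraries, group as the only term, 10 residual degrees of freedom), with Benjamini-Hochberg adjustment over all genes and calls at an adjusted p under 0.05. SE was the absolute log2 fold change divided by the square root of F. Log2 CPM used a prior count of 2. Alternatives were DESeq2 1.42.0, RLE or library-size scaling, filterByExpr, a robust prior, a block for the replicate number, a fit of only the groups compared, summed near-identical copies, and each library left out. Leaving out both shSCR replicates 2, each pair, and summing copies with the block were chosen after seeing the data. The steps were tested on simulated data.

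Deviations from group means of same-numbered libraries correlated at 0.51, 0.29 and 0.20 in the 3 pairs of the aspartate comparison, so the numbers were taken as pairs there, from the data and not from the labels. Deviations within a group cancel out, so these correlations are not independent of one another. Differently numbered libraries were not correlated as a reference, so the pairing remains an assumption. In the other comparisons at least 1 pair stayed at 0.042 or lower, and the block is given only among the alternatives. The correlations there were -0.10, -0.12 and 0.04 with the *Grin2d* hairpin and 0.005, 0.03 and 0.23 between the knockdowns. With the *Dhps* hairpin they were 0.26, 0.20, 0.20 and 0.04, so most were near the lowest aspartate pair.

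Genes were named with values in every library if called, if most abundant of their role by CPM, if their groups did not overlap at an unadjusted p under 0.05 (up to 10 per comparison, averaging 5 CPM or more), or if *Gsta1*. Since groups without overlap were a reason for naming, and their share over all genes is not given, their mention only describes the libraries. Of the related lists, called genes (up to 5 per list and comparison), *Slc7a11*, *Hmox1* and *Txnip* were named. The members and lists were chosen with earlier results of these data known. Transcript lengths and identity of coding sequences came from GENCODE models of GRCm38 matched by gene ID, and promoter windows from RefSeq for GRCm38.p6, not the build of the counts. Coding-sequence identity stood in for the planned protein identity. Figures were drawn with matplotlib 3.10.9.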

Additional observations from a re-analysis of the deposited data

Results flagged for a closer look

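*Mgst1*, a microsomal glutathione transferase, stood at 101 CPM in ASP shSCR replicate 4, apart from the other libraries of its group at 83.9 to 86.1 CPM. It was the only such library in 46 groups of 4 libraries examined over 23 genes. Chance flags about 1 group in 20, so a single flag is no more than chance gives.

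The effect of the *Dhps* hairpin minus that of the *Grin2d* hairpin, each against the same ASP shSCR libraries, is the direct comparison of the knockdowns. It passed the edgeR test for 5 of 51 genes (9.8%, background 2.82%). The log2 difference was -0.87 for the extracellular superoxide dismutase *Sod3* (adjusted p = 0.00058) and -0.67 for the transferase *Gstm1* (adjusted p = 0.0073). It was 0.39 for the quinone reductase *Nqo1* (adjusted p = 0.0408), 0.41 for *Prdx6* (adjusted p = 0.0429) and 0.37 for *Prdx5* (adjusted p = 0.0473), both peroxiredoxins. For each of the 5, every ASP shDHPS library lay on the same side of every ASP shGRIN2D library. The share of all genes without overlap is not given. Only *Sod3* was called whichever single library was left out, and the others each lost the call in some of these fits.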

How the results depend on the processing

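No difference of a gene with a call reversed under any alternative. DESeq2 called 11 genes with the *Dhps* hairpin, 3 with the *Grin2d* hairpin and 9 between the knockdowns, against 6, 2 and 5 in edgeR. Apart from the block of 7 shSCR libraries, no background share is given for the alternatives. Their counts of calls therefore show only how the calls depend on the setting. RLE factors, library size alone, filterByExpr, a robust prior and a fit of only the groups compared gave 0 calls with aspartate, 2 with the *Grin2d* hairpin, 5 to 8 with the *Dhps* hairpin and 5 or 6 between the knockdowns. Leaving out 1 library at a time gave 0 calls with aspartate, 2 with the *Grin2d* hairpin, 3 to 7 with the *Dhps* hairpin and 1 to 4 between the knockdowns. Of the log2 fold changes of the 23 named genes under the alternatives, 29 lost a call, 44 gained one, 12 without a call moved by more than the SE, and 1391 did none of these. Genes under 5 CPM, such as *Gpx2* with 9 to 43 counts per library, are limited by counting error.

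The replicate number as a block in all 14 libraries gave 0 calls with aspartate, 4 with the *Grin2d* hairpin, 17 with the *Dhps* hairpin and 11 between the knockdowns, and in only the groups compared it gave 1, 4, 14 and 10. In both fits *Txnrd1*, *Srxn1* and *Gstp1* were among the genes called with the *Dhps* hairpin, which the main fit did not call. In the labels, the pairs of the comparisons with a targeting hairpin share only a number. With the *Dhps* hairpin, deviations in pairs 1, 2 and 3 correlated at 0.26, 0.20 and 0.20, and in pair 4 at 0.04. With the block, *Gsta1* was called with the *Dhps* hairpin, at 0.59 in 14 libraries (edgeR adjusted p = 0.0021) and 0.61 in the groups compared (adjusted p = 2.83e-07), and not with the *Grin2d* hairpin (0.45 and 0.48, adjusted p = 0.0954 and 0.192). For *Gsta1* with aspartate, the block in 7 libraries gave -0.49, in 14 libraries -0.45 (edgeR adjusted p = 1), and no block gave -0.60 in 7 and -0.61 in 14 libraries (adjusted p = 1 in both). Leaving out 1 pair gave -0.60 to -0.42. The block changed no other call with aspartate among the 51 genes.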
